A study of Drosophila melanogaster with 2 samples.

Results

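Binding of the zinc finger transcription factor sugarbabe (sug) was described at cnc and at 9 further genes of the oxidative stress defence, namely Keap1, maf-S, ref(2)P, Gclc, Gclm, Cat, Sod1, Sod2 and Jafrac1. These 10 genes stand among 13968 protein-coding genes of the Ensembl annotation. They were chosen by name with peak signals of these lists already known, above all a very high summit in an intron of cnc, so their summits are given as descriptions and no test was run on them. The data come from ChIP-seq on Drosophila melanogaster embryos collected whole at 8 to 24 hours, males and females pooled, from 1 transgenic line that stably carries sug with GFP at its C terminus. An antibody against GFP was used, chromatin fragments measured 200 to 800 bp, and there were 2 biological replicates in a single group. No group lacking the tagged protein was analysed here, and whole embryos mix all cell types, so a signal cannot be given to any of them. The peak lists carry no read counts, so the depth per replicate is unknown.

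The product of cnc is the fly relative of the mammalian Nrf factors. Its long form, CncC, pairs with the small Maf protein encoded by maf-S and binds antioxidant response elements (AREs) near genes that detoxify reactive oxygen, whereas Keap1 holds CncC back until oxidants or electrophiles release it. Shorter Cnc forms are known for patterning the embryonic head. Among the enzymes, Gclc and Gclm form the glutamate-cysteine ligase that makes the precursor of glutathione, Sod1 and Sod2 convert superoxide to hydrogen peroxide, and Cat and Jafrac1 remove hydrogen peroxide. ref(2)P is the fly p62, a receptor of selective autophagy and a known CncC target.

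Every gene was searched from 5 kb upstream of its start to 1 kb past its end, along its own strand, in the set of 9342 reproducible summits (the IDR set) and in the 30000 summits called on the pooled reads. The signal score of a summit is the authors' own value and ranks summits only within its list. A percentile is the place of that score among all IDR summits, and rank 1 is the highest. A summit of a replicate list within 100 bp was taken as its partner in that replicate. A summit counts as promoter within 1 kb of any transcription start site (TSS), and as lying at the gene itself if it falls in the gene body or within 1 kb of one of the gene's TSSs.

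The sequences below carry the main positions: the highest summit of cnc, the summit beside the cnc-RL TSS, the cnc summit with an E-box almost at its centre, and the highest own summit of Keap1, Gclc, Gclm and Cat, with the promoter summit of Cat. They were read from the RefSeq copy of dm6, 5′ to 3′ on the strand of the gene, 100 bp to each side of the summit unless an exon began sooner. Capitals mark short words on either strand, namely the run CCCCCC, the similar word CCCCAC, the GATA-type word GATAAG, the E-box CACGTG and the palindrome TATCGATA. The core of the ARE, TGACNNNGC, would have been marked too but is in none of the sequences.
cnc intron, highest summit (chr3R:23210853-23211053, minus strand): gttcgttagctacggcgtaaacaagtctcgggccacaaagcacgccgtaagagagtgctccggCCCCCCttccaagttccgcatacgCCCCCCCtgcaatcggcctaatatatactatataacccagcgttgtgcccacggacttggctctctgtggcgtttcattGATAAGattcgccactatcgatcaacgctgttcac
cnc, upstream of cnc-RL (chr3R:23214623-23214823, minus strand): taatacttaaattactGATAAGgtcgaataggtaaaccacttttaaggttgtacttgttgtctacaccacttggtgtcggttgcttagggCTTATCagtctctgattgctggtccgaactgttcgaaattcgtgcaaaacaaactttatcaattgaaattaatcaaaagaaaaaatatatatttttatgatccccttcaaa
cnc intron, E-box summit (chr3R:23212840-23213040, minus strand): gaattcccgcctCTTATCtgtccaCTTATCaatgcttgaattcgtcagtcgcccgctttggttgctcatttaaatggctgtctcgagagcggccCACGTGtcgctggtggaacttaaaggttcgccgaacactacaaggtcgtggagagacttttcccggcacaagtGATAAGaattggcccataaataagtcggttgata
Keap1, upstream of Keap1-RB (chr3R:17078103-17078271, minus strand): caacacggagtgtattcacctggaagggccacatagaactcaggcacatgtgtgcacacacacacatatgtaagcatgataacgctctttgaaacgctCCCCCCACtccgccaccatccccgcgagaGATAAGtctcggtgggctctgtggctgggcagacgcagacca
Gclc intron, highest own summit (chrX:8106756-8106956, minus strand): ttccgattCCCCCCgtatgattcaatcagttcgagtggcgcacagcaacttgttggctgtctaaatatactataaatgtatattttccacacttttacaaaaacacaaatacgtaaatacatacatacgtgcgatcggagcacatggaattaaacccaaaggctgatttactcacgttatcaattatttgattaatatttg
Gclm promoter (chr3R:22686511-22686663, minus strand): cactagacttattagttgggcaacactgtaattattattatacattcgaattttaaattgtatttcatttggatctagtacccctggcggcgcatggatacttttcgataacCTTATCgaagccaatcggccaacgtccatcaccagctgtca
Cat intron, highest own summit (chr3L:18826047-18826247, plus strand): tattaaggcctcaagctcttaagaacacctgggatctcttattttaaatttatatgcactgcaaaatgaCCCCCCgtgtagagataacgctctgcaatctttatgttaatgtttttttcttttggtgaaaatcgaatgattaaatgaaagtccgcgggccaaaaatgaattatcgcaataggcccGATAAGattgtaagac
Cat promoter (chr3L:18822494-18822603, plus strand): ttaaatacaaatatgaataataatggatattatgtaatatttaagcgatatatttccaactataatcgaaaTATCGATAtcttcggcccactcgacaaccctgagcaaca

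In the highest cnc sequence CCCCCC lies 10 bp from the summit in a run of C, and again 35 bp from it, beside a GATAAG 68 bp away on the other side. In Keap1 the letters CCCCCCAC stand at the summit itself, with CCCCCC centred 0 bp from it. In the Cat intron CCCCCC is 28 bp from the summit and in the Gclc intron 90 bp from it. The cnc E-box CACGTG is 4 bp from its IDR summit, whose partner lies 8 bp away in replicate 1 and 68 bp away in replicate 2. GATAAG is 8 bp from the summit beside cnc-RL, 29 bp from the Keap1 summit and 14 bp from the Gclm summit, and TATCGATA is 25 bp from the Cat promoter summit.

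In the IDR set 8 of the 10 genes had at least 1 summit in their window, against 56.1% of protein-coding genes searched in the same way. Long windows catch more summits. All protein-coding genes were therefore split into 5 equal groups by window length, and the shares of the groups to which the 10 genes belong average 58.3%. With only summits within 1 kb of an own TSS counted, the number of genes was again 8 of 10, against 39.3% of protein-coding genes. Sod1 and ref(2)P were without a summit in either count. The 8 genes held 44 summits, of which 33 lay at the gene itself and 11 elsewhere in the window, mostly in or at the start of a neighbouring gene. By distinct start site, 19 of the 25 TSSs of the 10 genes had a summit within 1 kb, against 40.3% of all TSSs of protein-coding genes. Starts of 1 gene often share a summit, as several of cnc, Gclc and Jafrac1 do, and 10 of the 25 TSSs are of cnc. The shares within 1 kb of a TSS were not matched for the number of TSSs per gene.

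The summits of these genes spread over the whole range of the IDR set. Their median percentile was 64.2, or 62.1 without the 18 summits of cnc, 5 stood at or above the 90th percentile and 17 below the median of the set. By class 26 were promoter summits (59.1%, against 64.8% of all IDR summits), 13 were intronic (29.5%, against 26.3%) and 5 were in other places. Introns more than 1 kb from a TSS held 11 own summits, which belong to cnc, Gclc and Cat.

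**Figure D1:**
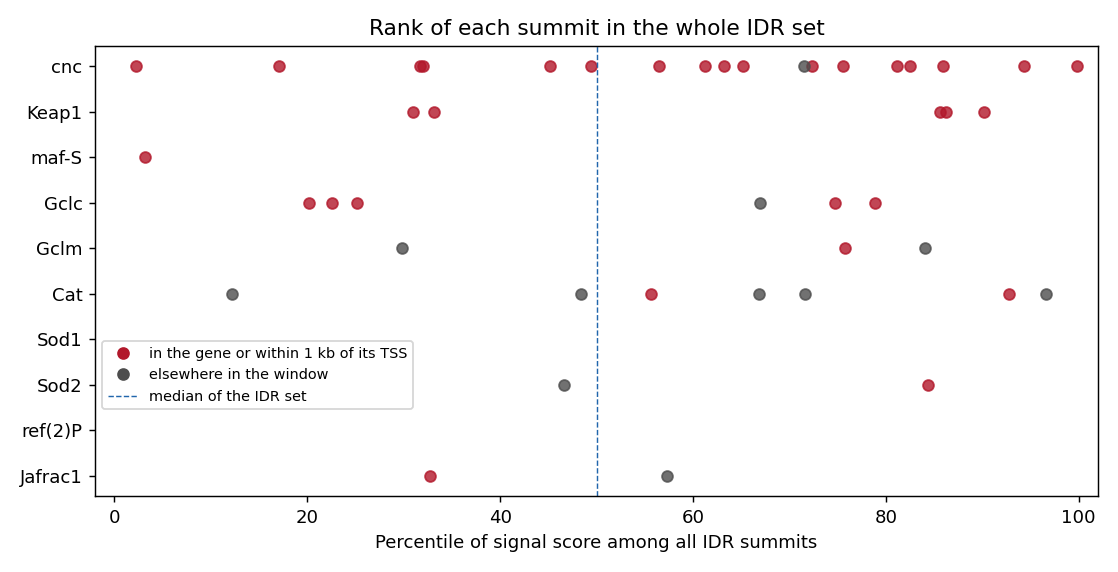
Percentile of signal score among all 9342 IDR summits (x axis) for each of the 44 summits, by gene (rows); red points lie in the gene or within 1 kb of its TSSs, grey points elsewhere in the window, and the dashed line is the median of the set. Summits of cnc run from the 2.24 to the 99.9 percentile, the 1 summit of maf-S is near the low end at 3.13, and the rows of Sod1 and ref(2)P are empty.

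Of the 44 summits, 41 had a partner in both replicate lists (93.2%), against 90.1% of all IDR summits. With partners allowed up to 200 bp away, 43 of the 44 had one in both lists. The IDR set was derived from these lists, so this is no independent check. Within 100 bp, replicate 1 lacked a partner for the Keap1 summit 179 bp upstream of its most upstream TSS and for the Gclm summit past the end of the gene. Replicate 2 lacked one for the Jafrac1 promoter summit. Over the 41 summits Spearman's rho between the 2 replicate scores was 0.69, as a description of positions that share libraries. In 35 of the 41 the larger rank was less than 3 times the smaller.

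**Figure D2:**
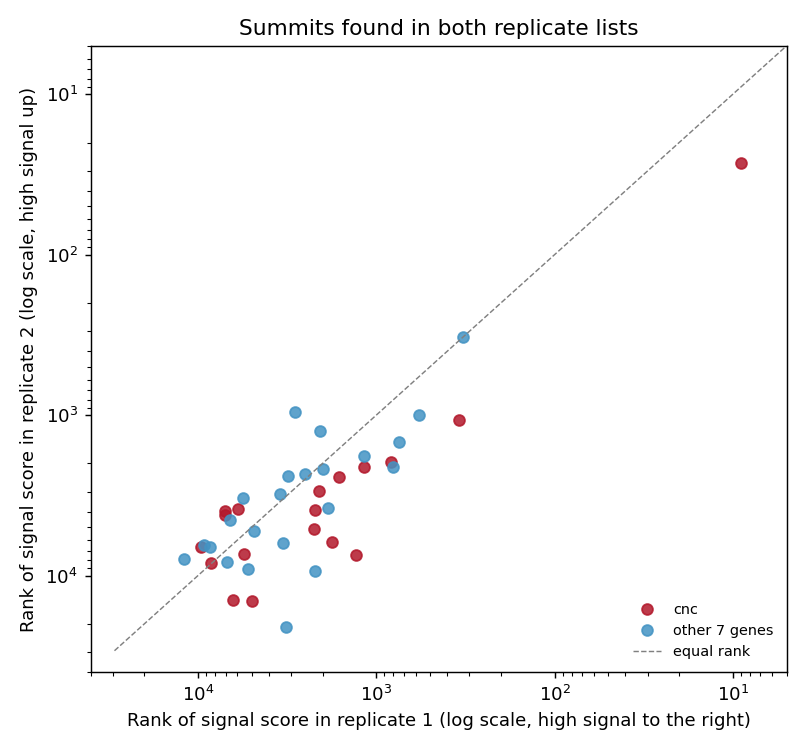
Rank of signal score in replicate 1 (x axis) and in replicate 2 (y axis), both on log scales with the highest signal at the upper right, for the 41 summits with a partner in both lists; red points are cnc, blue points the other genes, and the dashed line is equal rank. The highest cnc summit, at rank 9 in replicate 1 and rank 27 in replicate 2, stands apart from the remaining points, of which the nearest is the summit in the Cat window at ranks 326 and 327.

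The gene cnc (FBgn0262975) spans 3R 23185580 to 23226711 on the minus strand of dm6, 41132 bp with 16 annotated transcripts and 10 distinct TSSs. Its window held 18 IDR summits in 12 peak intervals, 17 of them at the gene itself, beside 27 summits of the pooled list. This is the ninth highest count among protein-coding genes, shared with hth and Svil. The highest are Eip75B with 31, tara with 28 and bun with 26, while the median gene has 1. Among 341 other genes whose windows measure 0.8 to 1.25 times that of cnc the median was 2, and only tara had as many summits or more.

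The highest cnc summit lies at 3R 23210953 with a signal score of 11170, rank 12 of the IDR set. Replicate 1 placed it at rank 9 with a score of 7489 and replicate 2 at rank 27 with 3749. It is intronic in 8 of the cnc transcripts and lies 3604 bp downstream of the cnc-RL TSS. That is intron 1 of cnc-RL (4542 bp), intron 3 of cnc-RC, RJ, RK and RO (7995 bp) and intron 2 of cnc-RI, RM and RN (12913 bp), and no other annotated gene lies inside these introns. The position is upstream of every TSS from which the transcripts of the shortest Cnc forms start. Among 2459 IDR summits in introns more than 1 kb from a TSS it was the third, below 2 summits in sug itself (scores of 17485 and 15499), and directly above summits in ush (10749), sima (9888) and CG10383 (9652).

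Around it stood further summits of the same introns. At 23212940, with the E-box shown above, the score was 983.1 (rank 831 in replicate 1 and 1950 in replicate 2). At 23213141 it was 471.9 (ranks 5001 and 14356, in the same order of replicates) and at 23211962 it was 394.7 (ranks 7092 and 4184). The replicates thus placed the E-box summit in the upper ranks. They differed on the weaker neighbour at 23213141, which stood at the 83.3 percentile of the replicate 1 list and the 52.1 percentile of the replicate 2 list. Beside the cnc-RL TSS, the start of a transcript that encodes 1046 amino acids, the second highest cnc summit lay 166 bp upstream at 23214723 with a score of 1647 (94.4 percentile, ranks 342 and 1073), and another 385 bp upstream at 23214942 with 514.3 (ranks 1774 and 6144). Further upstream, within introns of the longer transcripts, 23217591 had 556.9 (ranks 2245 and 5135).

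The 4 transcripts with the longest proteins, cnc-RC, RJ and RK with 1383 amino acids and cnc-RO with 1430, share a TSS at 23221961, and of the annotated forms these are the ones of CncC length. The summit 7 bp from that TSS, at 23221968, was the weakest of the locus, with a score of 229.2 and a percentile of 2.24 (rank 6351 in replicate 1 and 14259 in replicate 2). Just over 1 kb to either side there were 2 more, at 23220829 in a 5′ UTR with 272.6 (ranks 8478 and 8336) and at 23222968 in a coding exon with 420.3 (ranks 7046 and 3977). At 23223610, 1649 bp upstream of that TSS and in intron 1 of cnc-RI, RM and RN, the score was 703.2 (ranks 2083 and 2962). The TSS of the CncC-length transcripts was therefore marked only weakly, and the higher signal lay in the introns on both sides of it.

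At the most upstream TSS of the gene, that of cnc-RI, RM and RN (1133 amino acids), 3 summits stood within 1 kb. At 23226332 the score was 821.2 (ranks 1620 and 2434), at 23226571 it was 644.5 (ranks 1296 and 7389) and at 23226900 it was 532.2 (ranks 5956 and 3849). Deeper in the gene, 23225336 in intron 1 of these transcripts had 327.0 (ranks 5515 and 7298). The summit at 23229012, with 631.9 (ranks 2207 and 3906), lies in the 3′ UTR of CG4467 and not at cnc.

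At the downstream end of the gene, where the TSSs of the transcripts for 533 amino acids cluster, there were 2 summits. That at 23190036, 383 bp downstream of the cnc-RE TSS, had a score of 859.2 (82.5 percentile, ranks 1177 and 2090). That at 23190236 had 328.2 (ranks 9640 and 6585). Both are also intronic in longer transcripts, so neither can be tied to the short forms alone. In all, 7 of the 10 cnc TSSs had a summit within 1 kb, and those of cnc-RB, RP and RG had none, with the nearest summit to cnc-RG at 1047 bp.

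Replicate 1 ranked 13 of the 18 cnc summits higher than replicate 2 did. For all 41 summits the number was 26 (63.4%), against 47.4% of all IDR summits with both partners.

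**Figure D3:**
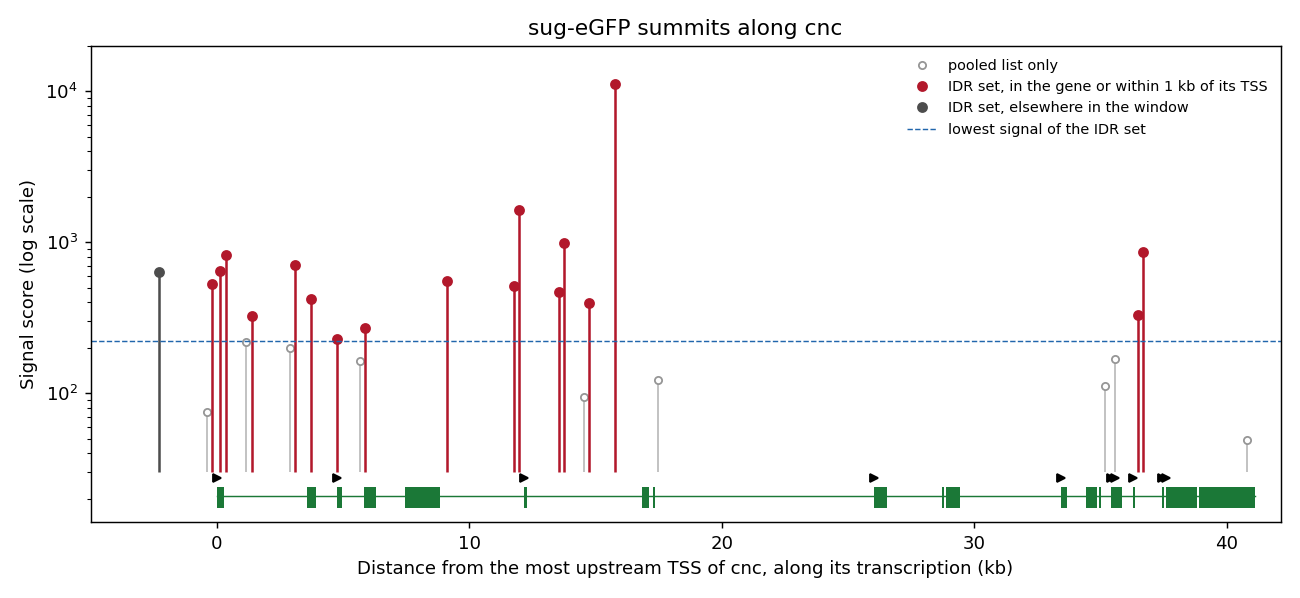
Signal score (y axis, log scale) of summits along the cnc window, by distance in kb from its most upstream TSS in the direction of transcription (x axis); red points are IDR summits at cnc, the grey point is the one in CG4467, open points are summits of the pooled list only, green boxes are exons, black arrowheads TSSs, and the dashed line is the lowest IDR score, 223.8. The summit with a score of 11170 stands well above the other points, and the long stretch downstream of it, with the TSSs of cnc-RB and cnc-RP, holds no IDR summit.

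Keap1 (FBgn0038475, 3R 17073942 to 17079945, minus strand), the repressor of CncC, had 5 summits, all within 1 kb of a Keap1 TSS. The highest, at 17078171, had a score of 1205 and the 90.2 percentile, with rank 742 in replicate 1 and 1472 in replicate 2. It lies 69 bp upstream of the internal TSS of Keap1-RB and in intron 1 of Keap1-RA and RC. Close to it, 17078383 had 324.0 (ranks 3191 and 20752).

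The other 3 Keap1 summits lie around the upstream TSS, which faces the gene kuk, and each is within 1 kb of a TSS of both genes. At 17079433, in the 5′ UTR of Keap1, the score was 999.5 (ranks 809 and 2105), and at 17080801, inside kuk, it was 973.7 (ranks 1169 and 1787). At 17080124, between the genes, it was 333.5, with rank 2410 in replicate 2 and no partner in replicate 1. The internal start of Keap1-RB was thus the one with a high summit that no neighbouring gene shares.

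The gene maf-S (FBgn0034534, 2R 20640976 to 20641668, plus strand), whose product is the partner of CncC on DNA, had 1 weak summit, 145 bp upstream of its TSS. Its score was 231.5, rank 9050 and the 3.13 percentile of the IDR set, and its ranks were 11891 in replicate 1 and 7865 in replicate 2. It is also within 1 kb of TSSs of CG11110 and rig. Among replicate summits it fell within the 9342 highest in replicate 2 only.

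ref(2)P (FBgn0003231, 2L 19542468 to 19545548, plus strand) had no IDR summit in its window. The pooled list had 6 summits there. The highest, 945 bp into the gene, scored 161.1 (rank 12352 of 30000), and the one 98 bp upstream of the TSS scored 145.5 (rank 13301). The promoter position had rank 7468 in replicate 2 and no partner in replicate 1. Both stayed below 223.8, the lowest score of the IDR set. The nearest IDR summits lay 120 bp beyond the upstream edge of the window, in the 3′ UTR of CG33116 with a score of 236.0, and 635 bp beyond the downstream edge, with 775.6.

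Gclc (FBgn0040319, X 8102181 to 8116147, minus strand), the catalytic subunit of glutamate-cysteine ligase, had 6 summits, 5 of them its own. The highest of its own, at 8106856, had a score of 768.2 (78.9 percentile, rank 1994 in replicate 1 and 2160 in replicate 2). It lies 814 bp upstream of the TSS of Gclc-RB and 958 bp downstream of that of Gclc-RD, so it counts as a promoter summit, and it is also in the 9522 bp intron that is intron 2 of Gclc-RA and intron 1 of Gclc-RC. The same intron held 8114731 with 684.8 (ranks 3120 and 2398), 8111198 with 301.1 (ranks 8572 and 6613) and 8113536 with 283.0 (ranks 6878 and 8203).

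The most upstream TSS of Gclc, used by Gclc-RA and RC, had a pooled summit 54 bp inside the gene with a score of 220.8 (rank 9471), just outside the IDR set. Within 1 kb of it the IDR set held only 8117018, with 291.8, in the 5′ UTR of the neighbour CG1575. The sixth summit, at 8101696 with 576.6, is at the TSS of CG2258. The summits at 8106856, itself near internal TSSs, and at 8114731 thus scored higher than those near the most upstream TSS.

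Gclm (FBgn0046114, 3R 22685006 to 22686510, minus strand), the modifier subunit, had 3 summits, of which its own lay close to the TSS. At 22686563, 53 bp upstream, the score was 707.1 (75.7 percentile, rank 2511 in replicate 1 and 2341 in replicate 2). CG17625 starts within 1 kb as well. The highest summit of the window, 908.9 at 22690466 (ranks 2078 and 1263), is at the start of wfs1 and Nup133. The third, at 22684895 past the end of Gclm, had 319.6, with rank 7795 in replicate 2 and no partner in replicate 1.

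Cat (FBgn0000261, 3L 18822604 to 18828188, plus strand), the catalase, had 7 summits, 2 of them its own. In the 3495 bp intron 1 the summit at 18826147, 3543 bp downstream of the TSS, had a score of 1436 (92.7 percentile, rank 573 in replicate 1 and 1002 in replicate 2). At 18822594, 10 bp from the TSS, the score was 466.1 (55.6 percentile, ranks 5571 and 3287). As at cnc, the higher of the gene's own summits lay in an intron more than 1 kb from a TSS.

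The highest summit in the Cat window, at 18817685 with 2186 (96.6 percentile, ranks 326 and 327), lies 81 bp inside the upstream edge, 4919 bp from the Cat TSS and in an intron of CG14073. Next to it 18817890 had 575.1 in the same gene. At the starts of CG14073 and HipHop, 18820220 had 633.4 and 18820431 had 257.4. The summit past the end of Cat, at 18828511, had 413.0. Those 5 summits were counted for the window of Cat but lie outside the gene and its promoter, and all but the last fall in CG14073.

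Sod1 (FBgn0003462, 3L 11112281 to 11113740, minus strand), the cytosolic superoxide dismutase, had no IDR summit. Its 3 pooled summits scored 122.5, 104.3 and 41.8, with the highest at rank 14950, and none had a partner in both replicates. An IDR summit with a score of 927.3, in an intron of FoxK at 11118747, lay 7 bp outside the upstream edge of the window. In replicate 1 the summit there fell inside the window, at rank 1052, so the count for Sod1 turns on a few bases at a position that lies in another gene.

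Sod2 (FBgn0010213, 2R 16772785 to 16773915, minus strand), the mitochondrial superoxide dismutase, had a summit 85 bp upstream of its TSS with a score of 923.1 (84.4 percentile, rank 2859 in replicate 1 and 957 in replicate 2). Arp53D starts within 1 kb of it too. A weaker summit with 402.3 (ranks 6599 and 4508), past the end of Sod2, lies at the start of unc-104. Within 1 kb of its TSS Sod2 therefore had an IDR summit, whereas Sod1 had only pooled summits outside the IDR set there.

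Jafrac1 (FBgn0040309, X 13329824 to 13331994, plus strand; Prx2 in the Ensembl annotation), a cytosolic peroxiredoxin, had a summit 21 bp downstream of its most upstream TSS. Its score was 331.8 (32.8 percentile), with rank 4869 in replicate 1 and no partner within 100 bp in replicate 2. Replicate 2 did have a summit at rank 7408, 88 bp from the same TSS on its upstream side, which lay slightly too far away to count as the partner. The other summit of the window, with 478.6 (57.3 percentile, ranks 2214 and 9289), is at lncRNA:CR32636, 100 bp inside the downstream edge.

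**Figure D4:**
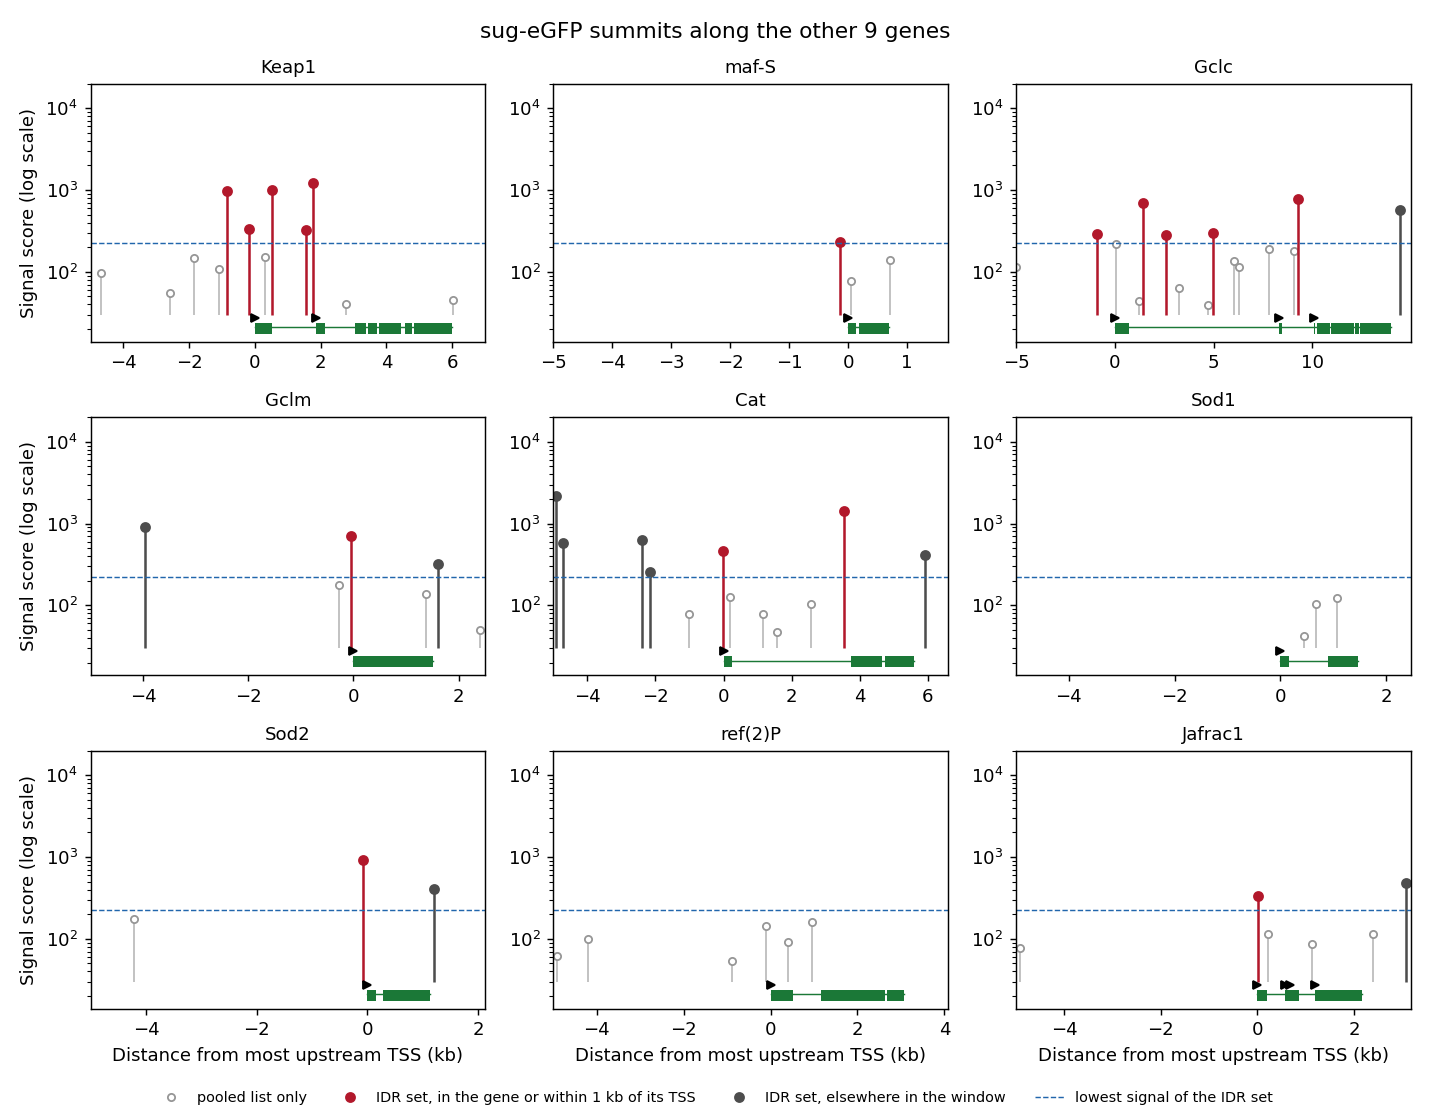
Signal score (y axis, log scale) of summits along the windows of the other 9 genes, by distance in kb from the most upstream TSS in the direction of transcription (x axis); red points are IDR summits at the gene, grey points IDR summits elsewhere in the window, open points summits of the pooled list only, green boxes exons, black arrowheads TSSs, and the dashed line the lowest IDR score. Cat carries its highest red point in an intron far from its TSS, Gclc carries its own in an intron near internal TSSs, Gclm and Sod2 carry theirs at the TSS, and Sod1 and ref(2)P have open points below the line only.

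Short words within 100 bp of the summits were counted on both strands, for 9 words in all, and set beside the share of all IDR summits with the word. The ARE core TGACNNNGC was found at 0 of the 44 summits, against 6.12% of all IDR summits. The same core followed by A was at 0 as well, against 1.59%, and so was TGACTCA, the AP-1 site, against 2.49%. Each of these says only that the letters are not in these windows. Farther from the summits ARE cores were present: the 10 windows held 57 of them in 136729 bp, at least 1 in every window and 21 in that of cnc. The 47 in windows with a summit lay a median of 1505 bp from the nearest summit, and the closest, in the Gclm window, was 112 bp from the wfs1 summit. The closest at cnc was 126 bp from the summit at 23190036.

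Runs of C were more frequent than the ARE. CCCCCC was at 9 of the 44 summits (20.5%), against 9.07% of all IDR summits, and 4 of the 9 are at cnc. Of the 5 summits at or above the 90th percentile 4 had CCCCCC, against 20.5% of the 935 IDR summits at that height, a comparison chosen after the values were seen. GATAAG was also at 4 of these 5, against 25.8% of IDR summits of any height. Its share among the summits at that height was not counted. The 5 include the cnc summit known when the genes were chosen, and a summit of the Cat window that lies in CG14073. CCCCAC was at 3 summits (against 10.5%), namely 1 of Keap1 and 2 of Gclc. The E-box CACGTG was at 3 (against 3.19%), namely 2 of cnc and 1 of Keap1. GATAAG was at 12 (27.3%, against 25.8%), TATCGATA at 2 (against 3.76%) and CACACA at 10 (22.7%, against 20.1%). Over the 44 summits the shares of GATAAG and CACACA were near those of the whole set. The median GC content of the 201 bp windows was 38.8% at the 44 summits and 41.3% over all IDR summits.

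A wider list of 62 genes with roles in the oxidative stress response, none of them among the 10, was searched in the same windows. Of these 56 (90.3%) had an IDR summit in the window, against 56.1% of protein-coding genes, and 41 (66.1%) had one within 1 kb of a TSS, against 39.3%. Neighbours share summits, so the 62 genes held 149 distinct ones. Of these, 13 (8.72%) had TGACNNNGC, against 6.12% of all IDR summits, and 22 (14.8%) had CCCCAC, against 10.5%. CCCCCC was at 10 (6.71%), against 9.07%, so the higher share of CCCCCC at the summits of the 10 genes was not seen in the wider list.

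Among regulators and partners of the stress response all 8 had a summit, against 67.7% of genes with windows of like length. Within 1 kb of a TSS 7 of the 8 had one, against 39.3% of protein-coding genes. The highest was at Atf3, a bZIP factor, 214 bp upstream of a TSS with a score of 3059 (98.2 percentile, rank 271 in replicate 1 and 122 in replicate 2). The window of Sesn, the fly sestrin, held one of 2165 (ranks 616 and 218) at the start of Alg3 and an antisense RNA, and that of foxo, the forkhead factor of insulin signalling, one of 1708 (ranks 749 and 388) 3343 bp upstream. The first of these lies at the promoter of the gene and the other 2 lie farther away.

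Among genes that make or use glutathione 19 of 20 had a summit, against 47.8% of genes with windows of like length, and Gss2 had none. For 13 of the 20 a summit lay within 1 kb of a TSS, against 39.3% of protein-coding genes. GstD1, D2, D3, D4, D9 and D10, neighbouring glutathione S-transferase genes, shared their highest summit, with a score of 2261 (ranks 338 and 294), 1177 bp upstream of GstD1 and within 1 kb of the start of lncRNA:CR46015. The window of GstD5 does not reach it, and the highest summit in that window, with 1615, lies within 1 kb of the GstD3 TSS. GstS1 had 2047 (ranks 195 and 977) in its own intron and Mgstl, a microsomal transferase, 1404. These neighbours count singly here although they share summits.

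Among thioredoxin and peroxiredoxin genes 7 of 12 had a summit, and Trxr2, TrxT, dhd, Txl and Prx3 had none. Summits within 1 kb of a TSS were present for 6 of the 12, against 39.3% of protein-coding genes. The highest was 1138 at Prx6a (ranks 1802 and 684), shared with RabGGTb and Sbat, followed by 888.8 in an intron of Trx-2 (ranks 1504 and 1839) and 834.2 in the window of Jafrac2 (ranks 1012 and 3783), inside CG2162. At 58.3%, this was the group whose share lay nearest to that of genes with windows of like length, 54.4%.

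All 8 genes for superoxide and peroxide handling and methionine repair had a summit, against 63.5% of genes with windows of like length, but the 2 highest lay at neighbours. Only 4 of the 8 had a summit within 1 kb of an own TSS, against 39.3% of protein-coding genes. The window of MsrA held 3609 (ranks 118 and 161) at CG7841 and Z600, and that of CCS, the copper chaperone of Sod1, held 2398 (ranks 153 and 873) at CG46319 and gem. SelR, a methionine sulfoxide reductase, had 1735 (ranks 459 and 540) 155 bp upstream of its TSS, shared with Tsp86D.

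All 6 genes listed for NADPH supply had a summit, against 66.1% of genes with windows of like length. Each had one within 1 kb of a TSS, against 39.3% of protein-coding genes. Idh, the NADP-dependent isocitrate dehydrogenase, had a score of 4736, the 99.2 percentile, 54 bp upstream of a TSS, with rank 56 in replicate 1 and 155 in replicate 2. This was the highest of the wider list. Nmdmc, a mitochondrial folate enzyme counted in this group without a check of its cofactor, had 2061 (ranks 266 and 569). Zw, the glucose-6-phosphate dehydrogenase, had 1667 (ranks 732 and 427). The Zw summit lies in an intron of Zw 1107 bp from its nearest TSS, within 1 kb of the start of asRNA:CR44512.

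All 8 genes of mitochondrial quality control, iron and haem had a summit, against 53.1% of genes with windows of like length. Within 1 kb of an own TSS 5 of the 8 had one, against 39.3% of protein-coding genes. DJ-1alpha, dj-1beta and Ho had none there or in the gene body. Fer1HCH and Fer2LCH, the ferritin subunits, shared one of 1618 (ranks 779 and 457), in an intron of Fer2LCH 225 bp downstream of its TSS and 323 bp upstream of that of Fer1HCH. The window of dj-1beta held 1332 (ranks 834 and 857) in an intron of wts, and that of Pink1 held 1229 (ranks 956 and 930) at Fum1 and ND-ASHI.

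**Figure D5:**
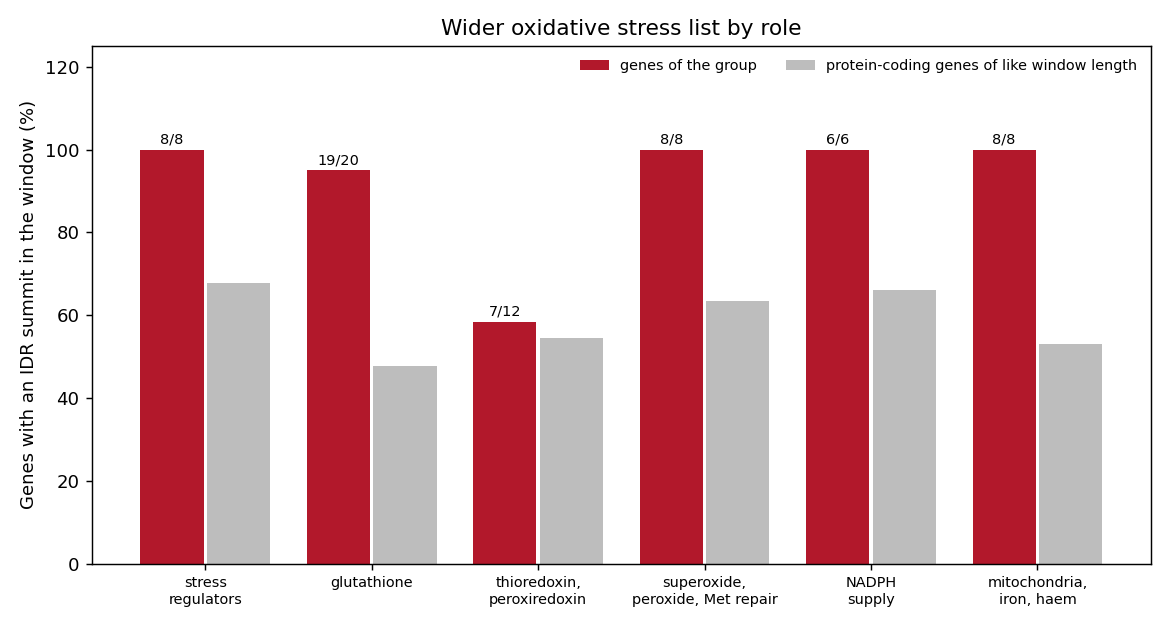
Percent of genes with an IDR summit in the window (y axis, from 0) for the 6 role groups of the wider list (x axis); red bars are the genes of the group, with the number with a summit and the number of genes above, and grey bars the mean share among protein-coding genes of the same window-length group, of 5. In the glutathione group 95.0% of genes had a summit, against 47.8% of genes of like length, and in the thioredoxin and peroxiredoxin group 58.3%, against 54.4%.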

How the data were processed

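Per the labels, embryos of a line with GFP-tagged sug were precipitated with an antibody against GFP in 2 biological replicates. The deposited text files state dm6 as the assembly and list, for each replicate and for the pooled reads, alignments and a control as the inputs of peak calling; the IDR set of 9342 rows was made from these lists. Aligner, caller and versions: not given in the sources used here. No control was among the data used. Per the deposited lists, the authors' value for a summit is a signal score that can be compared only inside its list, and their −log10 q equals 4.38 throughout the IDR set and was left unused. All 9342 IDR rows are rows of the pooled list. The pooled and replicate lists hold 30000 rows each, and depth is unknown. Samples were not compared between groups, since there is 1 group.

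Genes, transcripts and TSSs came from Ensembl release 115 (transposable elements left out) and sequence from RefSeq's copy of dm6. Coordinates are 1-based. Of the 10 genes, 1 (Jafrac1, listed as Prx2) was matched through a RefSeq synonym, as were 6 of the wider list. All members are named. From the wider list up to 3 genes per role with the highest summit are named, with any gene whose TSS lies within 1 kb of a summit. The members and lists were chosen with earlier results of these data known. Functions were tested on simulated positions. Alternatives were the higher-signal part of the IDR set, the 9342 highest rows of each replicate list alone, other windows and other word distances. Computations used Python 3.11.15, numpy 2.4.6 and pandas 2.3.3.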

Additional observations from a re-analysis of the deposited data

How the results depend on the processing

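Each replicate list was cut to its 9342 highest summits here. Of the 10 genes, 7 had a summit among the 4671 higher-scoring IDR summits, against 40.9% of protein-coding genes, 8 in the cut list of replicate 1, against 54.4%, and 9 in that of replicate 2, against 57.5%, beside 8 in the IDR set. These were not the same genes throughout. The 8 of replicate 1 lack maf-S and include Sod1, through the position in FoxK. The 9 of replicate 2 are those of the IDR set with ref(2)P. Within the gene body alone it was 5 of 10, against 20.9% of protein-coding genes, and over all pooled rows 10, against 68.1%. Against 44 summits in the IDR set there were 27 in its higher-scoring part, 25 within gene bodies and 20 within 1 kb of an own TSS, and 47 to 49 in the cut replicate lists. With gene bodies alone 25 genes of the wider list had a summit, against 56 in the full windows, and 55 to 56 had one in the cut replicate lists. With 200 bp to each side, 3 member summits had TGACNNNGC, against 12.6% of all IDR summits, and with 50 bp it was 0. Counting only summits at the gene itself, an alternative chosen after seeing the data, left 33. The highest cnc summit stood at the 99.7 to 99.9 percentile in the IDR set and both cut replicate lists, and that of the Cat window at 96.5 to 96.6. Other percentiles moved more. For the highest summit of the Sod2 window it was 84.4 in the IDR set, 69.4 in replicate 1 and 89.8 in replicate 2. For that of the Jafrac1 window it was 57.3, 76.3 and 20.7 in the same order. The remaining alternatives kept each count within 1.5 times its value. Read depth is unknown, and no group without the tagged protein was analysed. No paired analysis was possible because there is 1 group and no comparison between groups.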
